A study of Mus musculus and Homo sapiens with 12 samples.

Results

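The genes described here encode the subunits of the receptors for the transmitters GABA and glutamate. They were chosen by gene symbol: GABA-A (GABR), GABA-B (GABBR), AMPA (GRIA), kainate (GRIK), delta (GRID), NMDA (GRIN) and metabotropic glutamate (GRM) receptor genes. There were 47 such genes among 23201 in the mouse KPC comparison and 21 among 18190 in the human PANC1 comparison. All 21 human symbols were also among the mouse ones, and 26 symbols were among the rows analysed here for KPC alone. The level of a gene is its normalised read count averaged over all samples of a comparison, and a level of 64 or more was taken as the detection floor. In KPC, 5 of 47 subunit genes stood above it, and in PANC1 3 of 21. Since the level is a mean over both groups, a gene can stand above the floor through its higher group alone.

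RNA was sequenced from 12 samples in 4 groups of 3 biological replicates. KPC LM2 is a second-generation liver-metastatic line derived from KPC, a mouse pancreatic cancer line, and PANC1 LM3 is a third-generation one derived from PANC1, an established human pancreatic ductal carcinoma line. All 4 groups carry the genotype label WT and no drug treatment is labelled. The labels do not say which alleles KPC carries, whether a line is a single clone, or which host animals were used. Per the labels' protocols, 500000 cells were placed in the spleen on day 1 and tumours growing in the liver were taken on day 21 for RNA. Sample titles name cells, so the labels do not settle whether whole tumour or recovered cells were sequenced.

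GABA-A receptors are chloride channels, usually built from alpha, beta and gamma subunits, and they carry most fast inhibition in the brain. GABA-B receptors couple to G proteins and need both of their subunits, GABBR1 and GABBR2, to work at the cell surface. AMPA, kainate and NMDA receptors are cation channels opened by glutamate, NMDA receptors need the GRIN1 subunit, and the GRM genes encode G protein-coupled glutamate receptors. Outside the brain, GABA is made in pancreatic islets, and the pi subunit GABRP is known from epithelia rather than from neurons.

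The authors' deposited tables give 1 row per gene, with its level, log2 fold change, standard error (SE) and Wald test, and no value per sample. The values of single samples, their depth and the overlap of groups therefore cannot be shown. Which group is the numerator of a fold change is not stated. The listed sign, positive or negative, is therefore kept without saying whether KPC LM2 or KPC, or PANC1 LM3 or PANC1, was the higher. A gene is called where the Wald test's p, adjusted over all genes by Benjamini-Hochberg, is under 0.05. Labels call the samples biological replicates without saying whether they came from separate animals, so the p-values measure the spread between these samples. In such bulk samples, fewer cells of a type and less RNA per cell cannot be told apart. Of 7 ductal keratin, adhesion and lineage genes that define the labelled carcinoma, 7 in KPC and 6 in PANC1 were at 64 or more.

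Between KPC LM2 and KPC samples, the GABA-A pi subunit gene was the single subunit gene called positive, and 8 others, all under the detection floor, were called negative. Of the 46 subunit genes tested, 2.17% were called positive and 17.4% negative. Over all 20050 tested genes of the authors' deposited table, 10.4% were called, 5.77% positive and 4.60% negative. Computed from the authors' deposited table, the median log2 fold change was -1.51 for the subunit genes and -0.08 for all genes tested. The 8 negative calls were spread over receptor classes: Gabra2, Gabra5 and Gabrq of the GABA-A receptors, Gria1 and Gria2 of the AMPA receptors, Grik1 of the kainate receptors, Grin2a of the NMDA receptors and the metabotropic gene Grm5. Fold changes in KPC shift with level, and a rolling median taken along the genes sorted by level gives that trend. Once the trend was removed, 1 positive and 3 negative calls were made, against 585 and 548 over all 20050 genes. These were Gabrp, and Gabbr1, Gria2 and Grin2a. With fold changes recentred on the genes at 64 or more, a shift of 0.22, there were 1 positive and 14 negative calls, against 506 and 1643 over all genes.

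**Figure D1:**
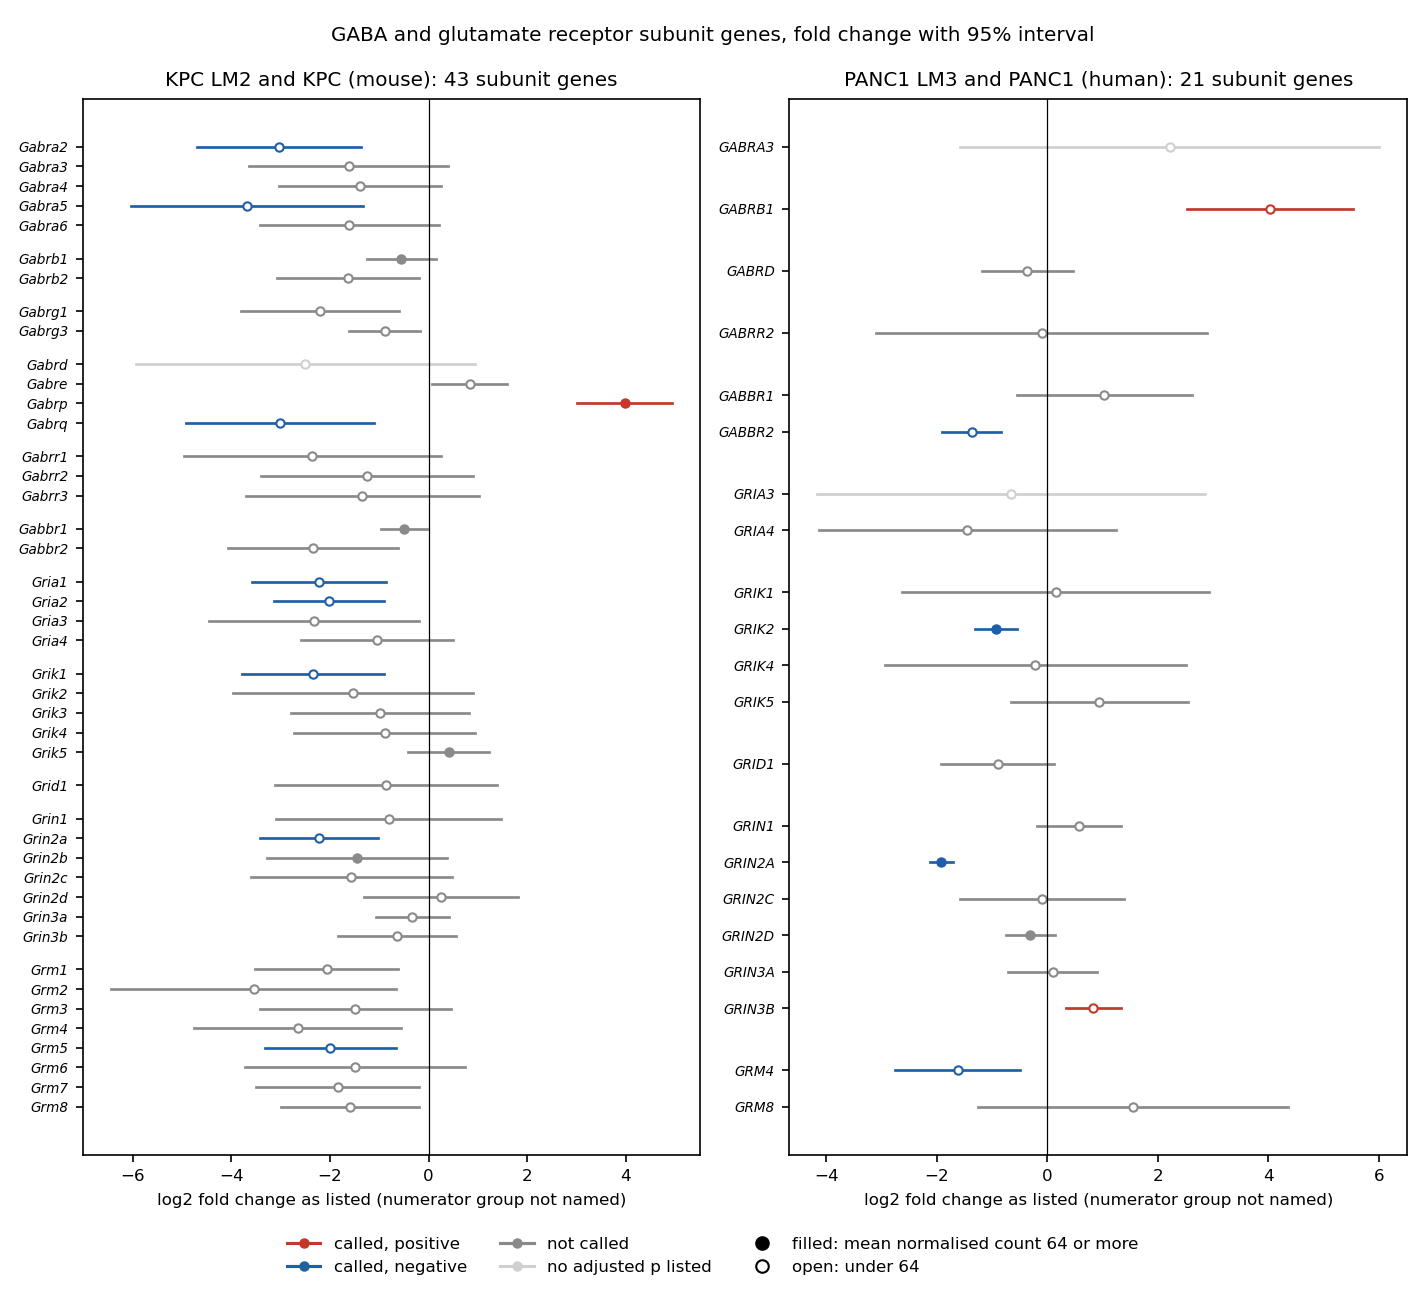
Log2 fold changes, as listed, of 43 mouse and 21 human receptor subunit genes, grouped by receptor class. Points are the authors' values, lines are 95% intervals, red and blue are called genes and filled points have a level of 64 or more; Gabrp at 3.98 is the single called positive gene of the mouse panel.

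These counts were set against genes of like level. Of the 46 tested genes, 30 had a level under 16. Of those 30, 29 had negative values in the authors' deposited table (96.7%), and so had 89.6% of the 7258 genes of that level. The median computed for these 30 from the authors' deposited table was -1.61, against -1.43 for all genes of that level, and 5 of the 30 (16.7%) were called negative, against 5.68%. Between 16 and 64, 10 of 11 subunit genes were negative (90.9%), against 58.6% of 3025 genes, with medians of -1.53 and -0.16 computed from the authors' deposited table. In that range 3 of 11 (27.3%) were called negative, against 10.0% of all genes, and 0 positive, against 3.87%, by the Wald test; 7 of the 11 had an unadjusted p under 0.05, 1 of them positive. At 64 or more, 1 of 5 was called positive, against 10.6%, and 0 of 5 negative, against 2.11%, by the Wald test; 2 of the 5 had an unadjusted p under 0.05, Gabrp and Gabbr1.

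**Figure D2:**
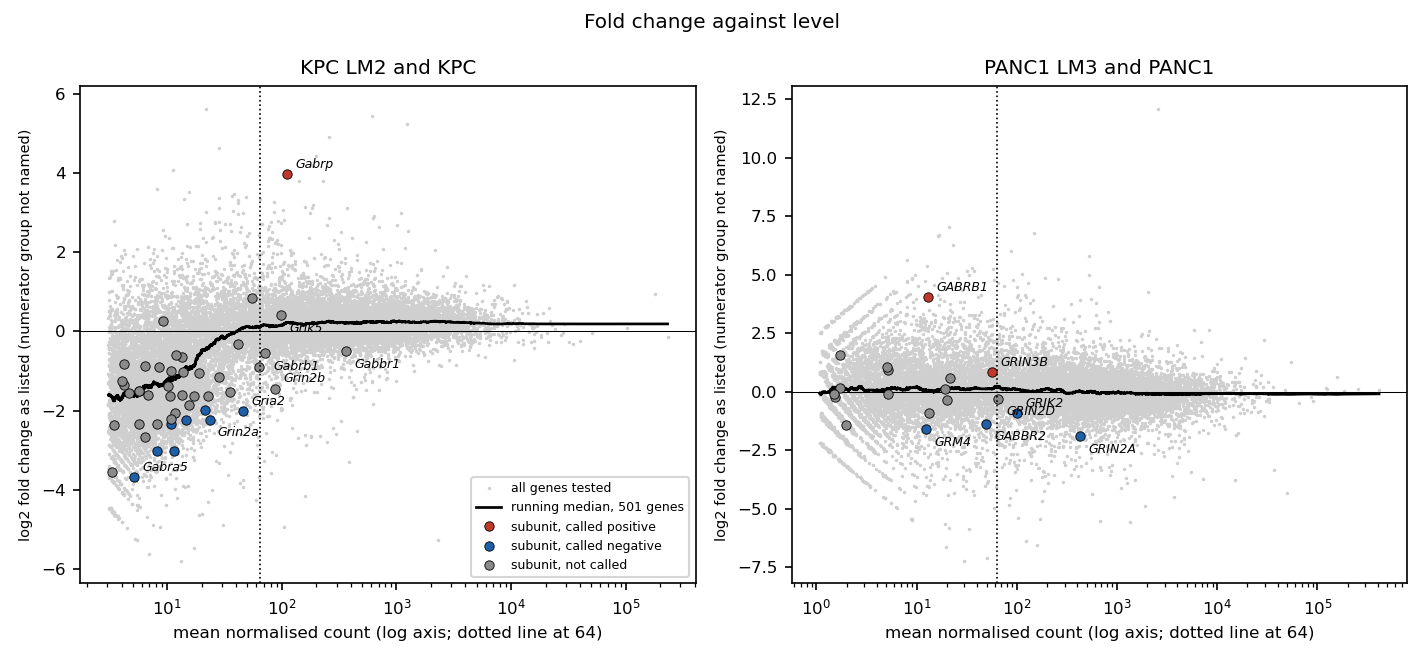
Log2 fold change, as listed, against level (mean normalised count, log axis), with subunit genes as large points, all tested genes in grey and a rolling median along the levels as a black line. In the left panel the black line lies below 0 at low counts, where most subunit genes are; in the right panel it stays near 0.

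Gabrp encodes the pi subunit, which can join other subunits in a GABA-A receptor. The authors' deposited table lists it at a level of 111 with a log2 fold change of 3.98 ± 0.50 (SE, 3 samples per group), a 95% interval from 3.01 to 4.95 and an adjusted p of 5.16e-13 by the Wald test. This is a 15.7-fold difference between the groups. At that fold and a level of 111, the lower group lies under 64. Gabrp therefore stands above the detection floor through its higher group alone. Gabrp kept its sign and its call under recentring (3.76) and once the level trend was removed (3.75). When the Wald statistic was read with t at 4 degrees of freedom, taken from the group sizes alone, its adjusted p was 0.43. That setting called no KPC gene of any kind, so it cannot set Gabrp apart from other genes. The SE was 1.72 times the median of the genes nearest in level. Of PANC1 rows analysed here, none was GABRP.

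The stretch before the start of Gabrp is printed beside that of Gabra2, the negative call of smallest adjusted p whose promoter was found, to show how differently the promoters of these 2 GABA-A genes are built. Each is the 250 bases before the start, 5′ to 3′ on the gene's own strand, from RefSeq on GRCm38.p6, a build other than the authors' mm39. Capitals mark CG dinucleotides. Gabrp lies at chr11:33578958-33579207 on the minus strand and Gabra2 at chr5:71095850-71096099 on the minus strand.
Gabrp: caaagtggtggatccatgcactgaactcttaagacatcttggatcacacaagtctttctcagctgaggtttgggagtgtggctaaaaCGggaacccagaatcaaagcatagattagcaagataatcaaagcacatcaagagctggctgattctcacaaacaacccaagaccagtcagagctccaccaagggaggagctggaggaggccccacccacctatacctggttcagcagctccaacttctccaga
Gabra2: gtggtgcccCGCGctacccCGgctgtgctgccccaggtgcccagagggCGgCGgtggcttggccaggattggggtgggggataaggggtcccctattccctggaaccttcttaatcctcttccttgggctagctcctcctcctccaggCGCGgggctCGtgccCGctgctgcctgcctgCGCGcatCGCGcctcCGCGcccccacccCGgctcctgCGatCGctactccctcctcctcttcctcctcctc
The Gabrp stretch has 49.2% G and C bases and 1 CG, and the Gabra2 stretch has 70% and 18. Over 39 promoters of the 32 subunit genes that were matched, the median was 58.8% with 9 CG, against 52.4% and 6 over all 32851 promoters. The highest was Grik3 with 82% and 42 CG, and the lowest Gabrg1 with 35.6% and 1 CG. Both strands were searched for 6 motifs, and a promoter was counted once per motif. The TATA box (TATAAA) stood in 10.3% of subunit promoters and 12.4% of all promoters, the AP-1 site (TGANTCA) in 5.13% and 6.75%, and the E-box (CACGTG) in 2.56% and 6.02%. The GC box (GGGCGG) stood in 46.2% and 32.7%, the CCAAT box (CCAAT) in 41% and 33.8%, and a piece of the REST element (TTCAGCACC) in 2.56% and 0.301%. For the REST piece and the E-box, 2.56% is 1 promoter of 39, that of Grm2 and of Grin1, too few to compare shares. None of the 6 letter strings stands in the Gabrp stretch. In the Gabra2 stretch the GC box begins at position -205 and the CCAAT box, read on the other strand, at -183, counted back from the gene's start.

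The other GABA-A genes of KPC were low or not called. Gabrb1, a beta subunit gene, had a level of 71.8 and a log2 fold change of -0.56 ± 0.36 in the authors' deposited table, with a 95% interval from -1.25 to 0.14. Gabrg3, a gamma subunit gene just under the floor at 63.5, was at -0.89 ± 0.37 with an adjusted p of 0.095 by the Wald test in the authors' deposited table, and of 0.032 after recentring. Gabre, the epsilon subunit gene, was at 0.83 ± 0.39, with a level of 54.5 and an adjusted p of 0.14 by the Wald test in the authors' deposited table. Gabre and Gabrp were the only GABA-A genes with positive values among the 18 tested, and 5 were positive once the level trend was removed. The alpha subunits form part of the GABA binding site, and all 6 alpha genes were negative, from -3.68 to -1.38, with Gabra2 and Gabra5 called in the authors' deposited table. Of the 6, 5 had a level under 16, where 89.6% of all genes tested were negative. Once the level trend was removed all 6 stayed negative, with a median of -0.58. Gabra2 was at -3.03 ± 0.85 (level 11.4) and Gabra5 at -3.68 ± 1.20 (level 5.15) in the authors' deposited table. Gabrq, the theta subunit gene, was at -3.01 ± 0.98 (level 8.17) in the authors' deposited table. Their adjusted p-values by the Wald test were 0.0087, 0.029 and 0.028. Whether a group was at 0 for such genes is not shown, so these folds are fitted values and no bounds. With the level trend removed their adjusted p-values were 0.22, 0.40 and 0.40. The 3 rho genes, first known from retina, had levels from 3.44 to 4.18, and none was called. Gabrd, the delta subunit gene, had a level of 1.82 and no adjusted p.

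Many mouse GABA-A genes sit near each other in the genome, often with alpha, beta and gamma members together. In RefSeq gene order on GRCm38.p6, 16 of the 19 lay in 5 groups with at most 1 other coding gene between members. In the group of Gabrg1, Gabra2, Gabra4 and Gabrb1 the values ran from -3.03 to -0.56, with Gabra2 called in the authors' deposited table. The authors' deposited table gives -1.25 for the rho gene Gabrr2 and -2.36 for its neighbour Gabrr1, neither called; with the level trend removed Gabrr2 was at 0.42. The group on the X chromosome held both signs, with Gabre at 0.83, Gabra3 at -1.62 and Gabrq at -3.01 in the authors' deposited table. Gabrp was in none of these groups. Differences within a group were not tested.

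**Figure D3:**
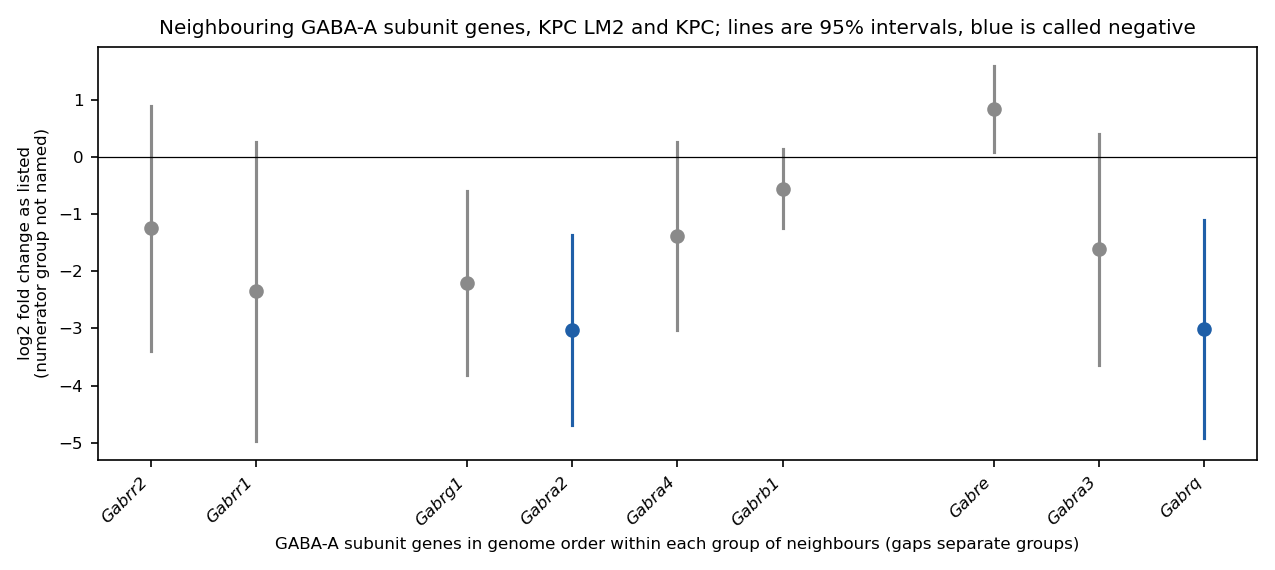
Log2 fold changes, as listed, with 95% intervals of 9 mouse GABA-A subunit genes in genome order within 3 groups of neighbours, in the KPC LM2 and KPC comparison. Called genes are blue, and the group of Gabre, Gabra3 and Gabrq runs from 0.83 to -3.01.

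The GABA-B pair was unequal in level. Per kilobase of annotated exon (GENCODE M21 on GRCm38), the normalised count was 47.2 for Gabbr1 and 1.23 for Gabbr2. Gabbr1 was the highest of the 47 subunit genes on this scale, followed by Gabrp at 32.9, Grik5 at 18.9 and Gabre at 11.5. Of the 47, 37 were under 3 per kilobase, and the median was 1.73, against 17.9 over 19306 tested genes with a length. Gabbr1 had a log2 fold change of -0.50 ± 0.24 and an adjusted p of 0.15 by the Wald test in the authors' deposited table. It was called in both rescaled fits, at -0.72 with adjusted p-values of 0.032 after recentring and at -0.71 with 0.046 once the level trend was removed. Gabbr2 was at -2.35 ± 0.88, with a level of 8.20 and an adjusted p of 0.062 by the Wald test in the authors' deposited table, and of 0.038 after recentring.

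Among AMPA receptor genes all 4 had negative values in KPC, also once the level trend was removed, and Gria1 and Gria2 were called. Gria2, whose subunit limits calcium entry through AMPA receptors, had a level of 45.9 and a log2 fold change of -2.02 ± 0.57 in the authors' deposited table. Its adjusted p by the Wald test was 0.0096, and 0.0077 once the level trend was removed. Gria1 was at -2.22 ± 0.70, with a level of 14.5 and an adjusted p of 0.022 by the Wald test in the authors' deposited table, and of 0.33 after the trend. Of 5 kainate genes, Grik1 was called, at -2.34 ± 0.73, with a level of 10.8 in the authors' deposited table. Its adjusted p was 0.023 by the Wald test and 0.49 after the trend. Grik5, a kainate subunit that needs a partner to form a channel, was above the floor at 97.7 and was not called, at 0.41 ± 0.42 in the authors' deposited table (95% interval -0.41 to 1.22).

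Of 7 NMDA receptor genes, Grin2a alone was called in KPC. It encodes a glutamate-binding GluN2 subunit and was at -2.23 ± 0.61, at a level of 23.4, in the authors' deposited table. The adjusted p was 0.0070 by the Wald test and 0.042 once the level trend was removed. Grin2b, another GluN2 gene, was above the floor at 87.6 and was not called, at -1.45 ± 0.93 in the authors' deposited table (95% interval -3.27 to 0.38). Grin1, which encodes the subunit that NMDA receptors need, had a level of 4.23 in the authors' deposited table. Of the 7, 6 had negative values as listed, and 3 once the level trend was removed. Grin3b shares 32.1% of its exonic length with exons of Tmem259 on the other strand. The library kit named in the labels, TruSeq RNA version 2, does not mark strand, so reads of those stretches cannot be told apart. Tmem259 (level 349) was at 0.23 ± 0.21 and Grin3b (level 13.3) at -0.64 ± 0.61 in the authors' deposited table, neither called; once the level trend was removed Grin3b was at 0.37. In all, 20 of the 47 subunit genes share exonic bases with another gene, and 3 share more than 0.1 of their exonic length, Grin3b, Grin1 and Grm6.

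All 8 metabotropic glutamate receptor genes had negative values in KPC, from -3.55 for Grm2 to -1.49 for Grm3 in the authors' deposited table. Grm5, a receptor coupled to calcium release, was called, at -1.99 ± 0.68, with a level of 21.2 and an adjusted p of 0.039 by the Wald test in the authors' deposited table. With the level trend removed its adjusted p was 0.20, and 6 of the 8 had negative values. The delta receptor gene Grid1 was not called, at -0.87 ± 1.15 in the authors' deposited table and at 0.51 with the level trend removed.

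For 4 of the 46 KPC genes the SE was 1.5 or more times the median of the tested genes nearest in level. Grin2b had an SE 3.00 times that median and Grik2, a kainate subunit gene, 2.82 times. Gabrp, at 1.72 times, was also among them. The median ratio over the 46 genes was 1.07. Since single samples are not listed, spread between samples and low counts in 1 group cannot be told apart as sources of a high SE. Grik2 was at -1.53 ± 1.24, with a level of 35.3 in the authors' deposited table, and its 95% interval from -3.96 to 0.90 covers 0. In PANC1 GABRB1 was the single such gene of 19, at 1.5 times.

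**Figure D4:**
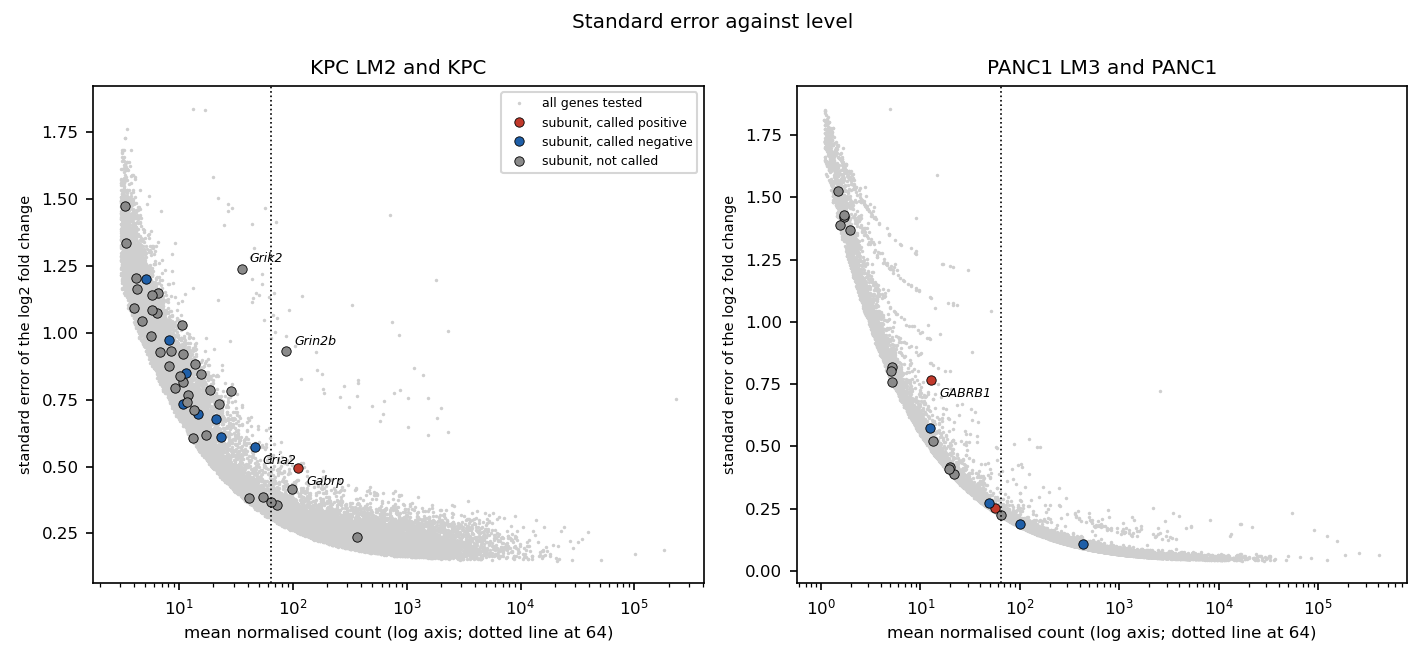
Standard error of the log2 fold change against level (mean normalised count, log axis), with subunit genes as large points over all tested genes in grey. In the left panel Grik2 and Grin2b lie at 2.82 and 3.00 times the median of genes of like level. They exceed 99.5% and 99% of those genes. In the right panel GABRB1 lies at 1.5 times that median and exceeds 95.5%.

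Between PANC1 LM3 and PANC1 samples, GRIN2A had the smallest adjusted p of the subunit genes, and 6 of the 19 tested were called, 2 positive and 4 negative. This is 10.5% positive and 21.1% negative. Over all 17838 tested genes of the authors' deposited table, 52.5% were called, 26.0% positive and 26.5% negative. The median log2 fold change computed from that table was -0.10 for the subunit genes, against -0.00 for all genes tested. At 64 or more, 2 of 3 were called negative and 0 positive by the Wald test, against 36.5% and 32.7% of all genes of that level, and the third had an unadjusted p of 0.17. From 16 to 64, 1 of 5 was called each way, against 28.4% positive and 16.8% negative. Under 16, 1 of 11 was called each way (9.09%), against 7.36% positive and 5.41% negative. GRIA3 and GABRA3 had levels under 1 and no adjusted p.

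GRIN2A had the highest level of the human subunit genes, 432, with a log2 fold change of -1.91 ± 0.11 (SE, 3 samples per group) in the authors' deposited table. Its adjusted p by the Wald test was 6.47e-70, and its 95% interval ran from -2.12 to -1.70, a 3.77-fold difference between the groups. With t at 4 degrees of freedom the adjusted p was 0.0027, and GRIN3B and GRM4 were no longer called, at 0.074 and 0.11. The sign and the call held under recentring (-1.88) and once the level trend was removed (-1.92). GRIN1, the obligatory partner, had a level of 21.7 and was not called, at 0.57 ± 0.39 in the authors' deposited table (95% interval -0.19 to 1.34). GRIN2D, the gene just inside the floor at 64.5, was at -0.31 ± 0.23 in the authors' deposited table and was not called. Its adjusted p was 0.26 by the Wald test and 0.048 once the level trend was removed. GRIN3B, just outside the floor at 56.4, was called positive, at 0.83 ± 0.25 in the authors' deposited table with an adjusted p of 0.0024 by the Wald test. It encodes a glycine-binding GluN3 subunit. TMEM259, the human namesake of the gene that overlaps Grin3b in mouse, was at -0.01 ± 0.09, with a level of 1731 in the authors' deposited table; whether the human genes overlap was not checked here.

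The other PANC1 calls fell in 4 receptor classes. GRIK2, a kainate subunit that can form a channel by itself, was at -0.93 ± 0.19, with a level of 99.9 and an adjusted p of 3.65e-06 by the Wald test in the authors' deposited table. GABBR2, the GABA-B subunit that couples to the G protein, was at -1.36 ± 0.27, with a level of 49.3 and an adjusted p of 1.83e-06 by the Wald test in the authors' deposited table. Its partner GABBR1 had a level of 5.08 and was at 1.03 ± 0.80, not called, in the authors' deposited table. GRM4, a metabotropic receptor gene, was at -1.62 ± 0.58, with a level of 12.3 and an adjusted p of 0.011 by the Wald test in the authors' deposited table. GABRB1 was at 4.03 ± 0.77, with a level of 12.9 in the authors' deposited table. Its adjusted p was 5.86e-07 by the Wald test, and its 95% interval ran from 2.53 to 5.53. Whether a group was at 0 for this gene is not shown, so the fold is a fitted value and no bound. The only other GABA-A genes tested, GABRD (-0.36 ± 0.42 in the authors' deposited table) and GABRR2 (-0.10 ± 1.52), were not called.

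Setting the models side by side, 18 subunit symbols were tested in both, and 0 were at 64 or more in both. GRIN2A was the single one called in both, at -1.91 ± 0.11 in PANC1 and -2.23 ± 0.61 in KPC in the authors' deposited tables. Whether the 2 tables put the selected line on the same side of the ratio is not stated, so like signs need not mean like changes. With signs as listed, the difference between fold changes was called for GABRB1 alone, in a normal test adjusted over 12777 shared symbols, of which 34.9% were called. GABRB1 was at 4.03 in PANC1 and -0.56 in KPC, a difference of 4.58 ± 0.85 (SE) with an adjusted p of 9.60e-07. With the sign of 1 table turned round, 4 of 18 were called, against 30.0% of shared symbols: GABRB1 (adjusted p 0.00038), GABBR2, GRIN2A and GRM4. GABRB1 was thus called under either reading. Of the genes above the floor in 1 model, GRIK2 was at -0.93 ± 0.19 in PANC1 and -1.53 ± 1.24 in KPC, GRIK5 at 0.94 ± 0.82 in PANC1 and 0.41 ± 0.42 in KPC, and GABBR1 at 1.03 ± 0.80 in PANC1 and -0.50 ± 0.24 in KPC, in the authors' deposited tables. Likewise GRIN2D was at -0.31 ± 0.23 in PANC1 and 0.25 ± 0.79 in KPC in the authors' deposited tables. GRIK1, called in KPC, was at 0.15 ± 1.42 in PANC1 and -2.34 ± 0.73 in KPC, and GRM4, called in PANC1, at -1.62 ± 0.58 in PANC1 and -2.66 ± 1.07 in KPC, in the authors' deposited tables. None of these 6 differences was called as listed.

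**Figure D5:**
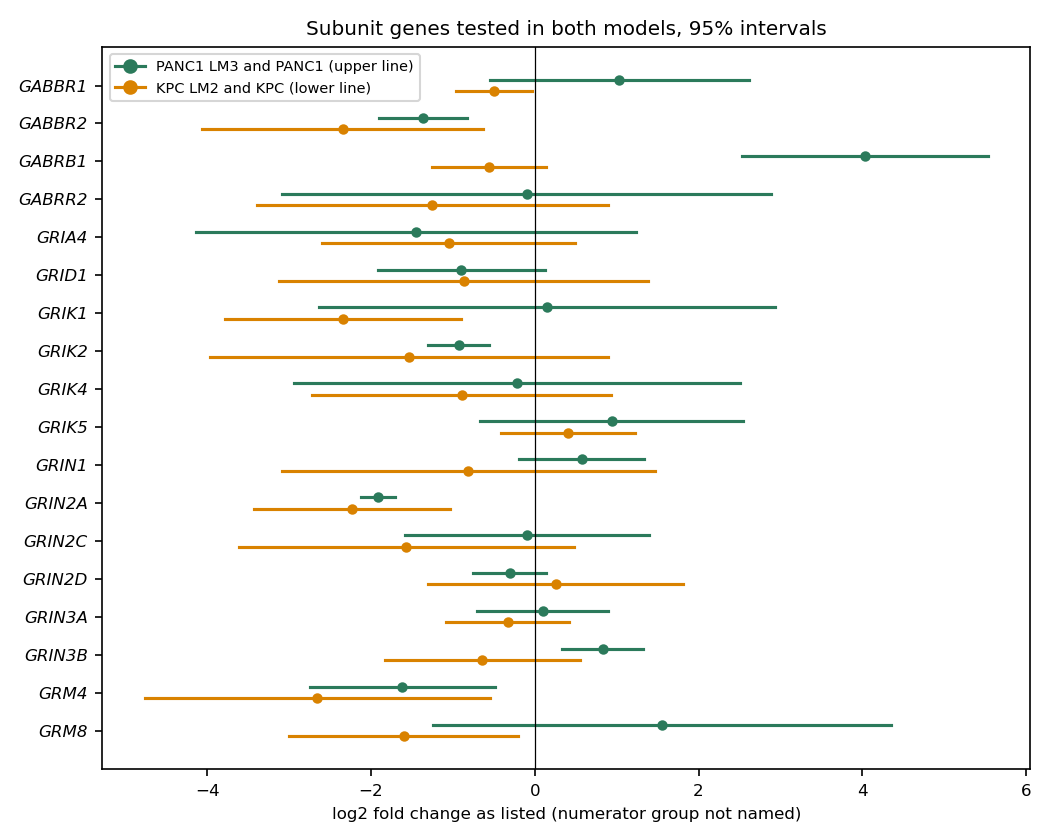
Log2 fold changes, as listed, of the 18 subunit genes tested in both models, with 95% intervals, PANC1 above KPC in each pair. GRIN2A lies at -1.91 and -2.23 and GABRB1 at 4.03 and -0.56.

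Genes that make, move or anchor GABA and glutamate, and the receptors' partner proteins, were also counted. In KPC 3 of 75 tested were called positive and 5 negative, beside 5.77% and 4.60% of all genes. The median log2 fold change computed from the authors' deposited table was -0.78, against -0.08 for all genes tested. Of the 80 listed, 26 were at 64 or more, and KPC fold changes shift with level. In PANC1 16 of 54 were positive and 17 negative, beside 26.0% and 26.5% of all genes, with a median of 0.01 computed from the authors' deposited table. These counts lie near those shares. Of uptake genes in KPC, the glial glutamate transporter gene Slc1a2 was called positive, at 2.86 ± 0.31, with a level of 622 in the authors' deposited table, while 2 others, under 64, were called negative. Gphn, whose product gephyrin anchors GABA-A receptors, was at 1.15 ± 0.29, and Gabarap, the GABA-A receptor-associated protein gene, at 0.58 ± 0.17 in the authors' deposited table for KPC. The scaffold gene Shank2 was at -1.97 ± 0.40 there, in the authors' deposited table. Among synthesis genes, 0 of 7 were called in KPC by the Wald test and 1 had an unadjusted p under 0.05. Gad1, which encodes a GABA-making enzyme, was at -2.17 ± 0.82, with a level of 10.7 in the authors' deposited table for KPC.

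In PANC1 5 of 11 GABA receptor partners were called positive and 0 negative by the Wald test, with 5 at an unadjusted p under 0.05. Of all tested genes, 26.0% were positive and 26.5% negative. At 64 or more, where 8 of the 11 stood, those shares of all genes were 32.7% and 36.5%. GPHN was at 0.31 ± 0.12 and GABARAP at 0.22 ± 0.07, with GABARAPL1 at 1.59 ± 0.08, GABARAPL2 at 0.23 ± 0.08 and KCTD12, a GABA-B partner, at 1.85 ± 0.26, in the authors' deposited table. The GABARAP family also works in autophagy. Glutamate receptor partners went both ways, 5 positive and 10 negative of 22. The scaffold genes DLG3 (2.06 ± 0.14) and HOMER2 (0.76 ± 0.10) and the AMPA receptor auxiliary genes CACNG7 (1.76 ± 0.15) and CNIH3 (1.92 ± 0.21) were positive in the authors' deposited table. HOMER3, which links metabotropic receptors to calcium stores (-2.43 ± 0.13), the cerebellin gene CBLN2 (-2.83 ± 0.26), the auxiliary gene CACNG4 (-1.67 ± 0.16) and the membrane fusion gene NSF (-0.80 ± 0.09) were negative in the authors' deposited table. Of the synthesis genes, glutamate dehydrogenase, GLUD1, was at 0.15 ± 0.06 and glutamine synthetase, GLUL, at -0.50 ± 0.09 in the authors' deposited table. Of the breakdown genes, ALDH5A1 was at 0.44 ± 0.20 and AKR7A2 at -0.32 ± 0.08 in the authors' deposited table. The chloride importer gene SLC12A2 was at -0.82 ± 0.07 and the taurine transporter gene SLC6A6 at -1.54 ± 0.07, in the authors' deposited table. Of 5 uptake genes tested, 1 was called positive and 4 negative, and SLC6A6 alone stood at 64 or more. SLC1A2, whose mouse counterpart was called positive in KPC, was called negative at -2.30 ± 0.83, with a level of 6.39, in the authors' deposited table. GAD1 was above the floor at 130 and was not called, at -0.29 ± 0.16 in the authors' deposited table.

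Markers of nerve, islet, glial and host liver cells were counted too, and their part in the results above was not tested. In KPC 1 of 48 tested markers was called positive and 5 negative, beside 5.77% and 4.60% of all genes, and 4 of the 52 listed were at 64 or more. These 4 were Map2, the glial gene Mbp (level 378) and the hepatocyte genes Apob (9009) and Hnf4a (2238). Other hepatocyte markers listed had levels of 26.7 (Ttr) or less, with Alb at 10.4. The highest levels among leukocyte, fibroblast and endothelial markers were 33.1, 19.9 and 30.7. Map2, a neuronal microtubule gene, was at 1.13 ± 0.27, with a level of 381, while the neuronal gene Syt1 was at -1.54 ± 0.55 with 18.7, in the authors' deposited table. In PANC1 5 of 29 were positive and 2 negative, beside 26.0% and 26.5% of all genes. The PANC1 rows carry human gene symbols, so a marker there counts reads assigned to human genes. Whether any of those reads came from host cells was not tested. SYT1 (level 651) was at 2.72 ± 0.10 and the neuroendocrine gene SCG2 (level 580) at 2.13 ± 0.11, while MAP2 (level 659) was at -0.34 ± 0.08, called negative, in the authors' deposited table. The other negative call was an endothelial marker, and the other 3 positive ones were glial and leukocyte markers. Of the 10 neuronal markers, 6 were listed in PANC1 and 10 in KPC. Of the 7 ductal genes in PANC1, 2 were called positive and 4 negative, from -4.35 ± 0.06 for KRT8 to 0.97 ± 0.10 for EPCAM in the authors' deposited table. In KPC 1 of 7 was called positive, Krt7 at 1.18 ± 0.18, and 1 negative, Epcam at -1.14 ± 0.28, in the authors' deposited table. No marker level per group is listed, so ranges by group cannot be shown.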

How the data were processed

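RNA of 12 samples was analysed through 2 tables, 1 per model. Per the submitters' processing notes, STAR 2.7.6a, featureCounts 2.0.0, MultiQC 1.9 and DESeq2 1.24 were named, with builds hg19 and mm39; settings, annotation and model design are not given in the sources used here. The deposited signal is the mean normalised count over both groups, read here as DESeq2 makes it, since the headers do not define it. Fold changes and SE are log2 values as deposited. The deposited score is the Wald statistic. The authors' p-values were checked against a normal distribution, and their adjusted p-values against a Benjamini-Hochberg adjustment over 20050 KPC and 17838 PANC1 genes; the largest gaps were 5.0e-08 and 2.5e-06. The depth per sample is unknown, and no count test could be run.

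The members and lists were chosen with earlier results of these data known. Named were subunit genes called or at 64 or more in either model with their counterparts, those just beside 64, and partner genes called at 64 or more, at most 4 per list and direction by adjusted p. Gabre, Gabrd, Gabrg1, Gabra4, Gabra3, Gabrr1, Gabrr2, Grik2, Grik3, Grid1, Grm2, Grm3, Grm6, GRIA3, GABRA3, GABRD, GABRR2, KCTD12, SLC1A2, Gad1, GAD1, Tmem259 and TMEM259, and the single markers, were named after their values were seen. A few genes are counted but not reported by name here. Intervals are the fold change ± 1.96 SE. Exon lengths, overlaps, gene order and promoters are of GRCm38. Tests ran in scipy 1.17.1 and tables in pandas 2.3.3 with numpy 2.4.6, under Python 3.11.15, figures in matplotlib 3.10.9, and the calculations were tested on simulated data. Also tried were a threshold of 0.01, a minimum size of 1 on the log2 scale, adjustment over every listed gene, genes at 64 or more alone, recentring, removal of the level trend and a t distribution.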

Additional observations from a re-analysis of the deposited data

Results flagged for a closer look

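GABRB1 differed between the models by a test of the difference itself: its log2 fold change was 4.03 ± 0.77 in PANC1 and -0.56 ± 0.36 in KPC in the authors' deposited tables, a difference of 4.58 ± 0.85 (normal test, adjusted p 9.60e-07 over 12777 shared symbols). By the same test 34.9% of the shared symbols were called. The human gene had a mean normalised count of 12.9, under the floor of 64. Whether a group was at 0 for it is not shown, so its fold is a fitted value and no bound.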

How the results depend on the processing

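No paired analysis was possible because the tables hold no value per sample; leaving out replicates, a count test and DESeq2 on counts were not run for the same reason. Against 9 subunit genes called in KPC, 4 were called at an adjusted p of 0.01, 1 with genes at 64 or more alone (5 tested), 15 after recentring and 4 once the level trend was removed. For partner genes in KPC (8 called) these counts were 4, 4, 14 and 4, and for host and nerve markers (6 called) 3, 1, 10 and 1. With t in place of the normal distribution (4 degrees of freedom), 0 were called in each of the 3 KPC lists, as over all KPC genes, where 2132 had an unadjusted p under 0.05; of the subunit genes 10 had one, against 22 by the Wald test. In PANC1, 2 of 6 subunit calls were made with genes at 64 or more alone (3 tested), and the 33 partner calls became 18 at an absolute log2 fold change over 1 and 21 by the t distribution. The single difference between models became 2 after recentring (with GRIN3B, adjusted p 0.031), 2 once the level trend was removed (with GRIN2D, 0.041) and 4 with 1 sign turned round. By the t distribution GRIN3B and GRM4 of PANC1 had adjusted p-values of 0.074 and 0.11, and the 9 KPC subunit calls 0.43. Over the 44 tested subunit genes named, counted per model, 154 recomputed values kept their sign and their side of the threshold, 17 lost the call, 6 gained it and 7 changed sign. The 6 were Gabbr1 in both rescaled fits, Gabrg3, Gabbr2 and Gabrg1 (adjusted p 0.035) after recentring and GRIN2D once the level trend was removed. The 7, none called, became positive in KPC once the level trend was removed: Grin1 at 0.75, Grid1 at 0.51, Gabrr2 at 0.42, Grin3b at 0.37, Grik3 at 0.17, Grm3 at 0.096 and Grm6 at 0.086. The cause of these changes was not tested. Over all KPC genes, 1157 of 2079 calls were positive as listed and 506 of 2149 after recentring. Low counts limit most subunit genes: the median SE of those tested was 0.84 in KPC and 0.58 in PANC1.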
